A study of Saccharomyces cerevisiae with 4 samples.

Results

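Arginine metabolism was examined in *esl1Δ esl2Δ* and wild-type yeast through 9 genes, 7 genes of arginine synthesis (*ARG1*, *ARG3*, *ARG4*, *ARG5,6*, *ARG7*, *ARG8* and *CPA1*) and both genes that begin arginine breakdown (*CAR1* and *CAR2*). They are 9 of the 6254 genes with a value in every replicate, and all 9 were found by the systematic name of their probe. The mutant lacks *ESL1* (esl1∆::KAN) and *ESL2* (esl2∆::NAT), and the wild-type is its parent Y52, a W303-1A strain. Both strains are MATa and RAD5, carry the auxotrophic alleles *ura3-1*, *trp1-1*, *leu2-3, 122* and *ade2-1*, and have *can1-100*, a mutant allele of the main arginine permease gene. Cells were grown at 30° to log phase in YPD with 2% glucose, a rich medium that contains amino acids. RNA of 3 biological replicates was hybridized to Agilent 2-color arrays, in which Cy5 marked mutant RNA and Cy3 marked wild-type RNA, and replicate 3 was hybridized again with the dyes exchanged.

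Yeast makes arginine from glutamate. Acetylated intermediates are converted to ornithine inside the mitochondrion, ornithine leaves for the cytosol, and there it is joined with carbamoyl phosphate and turned through citrulline and argininosuccinate into arginine. Arginase and ornithine aminotransferase break arginine down again. Synthesis and breakdown are known to be regulated in opposite directions, since the ArgR–Mcm1 complex represses several synthesis genes and induces the catabolic genes when arginine is plentiful, and the activator Gcn4 raises the synthesis genes when amino acids are scarce. *CPA1* is in addition controlled by a small peptide encoded in its own leader. The comparison asks how far these opposed groups moved in the mutant.

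The deleted genes had log2 ratios of mutant over wild-type of −4.50 ± 0.23 (*ESL1*, YIL151C) and −3.76 ± 0.20 (*ESL2*, YKR096W; SD, n = 3 for each), which matched the labels. The median spot intensity lay between 1660 and 5186 per channel over a local background of 22 to 49.5, and the share of gene spots above it by the software's own test was 92.4% to 98.0%. All 9 arginine probes were well above background in both channels on all 4 arrays, and none was saturated. Replicate 3 stood apart. Across genes, which are not independent replicates, its log2 ratios correlated with r = 0.10 with those of replicate 1 and 0.21 with those of replicate 2, against 0.68 between replicates 1 and 2 and 0.84 between both arrays of replicate 3. Results are therefore also given without replicate 3. By limma with Benjamini-Hochberg adjustment, 7 of 6254 genes had an adjusted p below 0.05, of which 5 were lower in the mutant (0.0799% of genes) and 2 higher (0.032%).

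All 7 synthesis genes were lower in the mutant than in the wild-type in each of the 3 replicates. The mean log2 ratio of the 7 genes had a median of −1.02, from −1.16 for *ARG3* to −0.63 for *ARG8*, and the median over all genes was −0.0049. The catabolic genes had means of 0.11 for *CAR1* and 0.45 for *CAR2*. None of the 9 passed limma with Benjamini-Hochberg adjustment over all genes. The smallest adjusted p among them was 0.117, that of *ARG7*. The share of all genes that were below 0 in all 3 replicates was 18.5%. A mean of at least 2-fold lower was found for 4 of the 7 synthesis genes (*ARG1*, *ARG3*, *ARG7* and *CPA1*), and for 0.4% of all genes. Before adjustment, 7 of the 7 synthesis genes had a p below 0.05, all of them lower, as had 5.39% of all genes in that direction. The intensities of the 3 replicates did not overlap between strains, with the mutant lower, for 5 of the 7 synthesis genes and for 2.77% of all genes. The arrays read the RNA of a whole culture, so that fewer cells with a transcript and less of it per cell cannot be told apart.

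In the mitochondrial part of the pathway, *ARG5,6* (YER069W) encodes a precursor that is cut into acetylglutamate kinase and the reductase of the following step. Its normalized intensity in replicates 1 to 3 was 5223, 6414 and 6516 in *esl1Δ esl2Δ* cells and 12035, 12089 and 11375 in wild-type cells. The strains did not overlap. Its log2 ratio was −0.97 ± 0.21 (SD, n = 3; 95% interval from limma −1.28 to −0.67; limma, Benjamini-Hochberg adjusted p = 0.118), which is 1.96-fold lower in the mutant. *ARG8* (YOL140W) encodes acetylornithine aminotransferase, and its intensity was 2020, 2154 and 2391 in the mutant and 4208, 3449 and 2664 in the wild-type. These values did not overlap either, but the strains lay closest in replicate 3. There the first array gave a log2 ratio of −0.37 and the dye-swap array one of 0.06, and the mean over replicates was −0.63 ± 0.45 (limma, adjusted p = 0.284). Without replicate 1 the *ARG8* mean was −0.42. *ARG7* (YMR062C) encodes ornithine acetyltransferase, which releases ornithine. Its intensity was 6095, 8914 and 10760 in the mutant and 11533, 20881 and 20224 in the wild-type, again without overlap. Its log2 ratios of −0.92, −1.23 and −0.91 were the least variable of the 7 synthesis genes, with a mean of −1.02 ± 0.18 (95% interval from limma −1.32 to −0.72; 2.03-fold lower in the mutant).

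*CPA1* (YOR303W) encodes the small subunit of the carbamoyl phosphate synthetase that serves arginine synthesis. Its intensity was 3490, 2209 and 3013 in *esl1Δ esl2Δ* cells and 9884, 5855 and 3992 in wild-type cells, so that every mutant value was below every wild-type value. The log2 ratio was near −1.5 in replicates 1 and 2 (−1.50 and −1.41) and −0.41 in replicate 3, with a mean of −1.10 ± 0.61 (SD, n = 3; limma, Benjamini-Hochberg adjusted p = 0.196). Within replicate 3 the first array gave −0.58 and the dye-swap array −0.23. The array design also has a probe for YOR302W, the open reading frame of the attenuator peptide in the *CPA1* leader. YOR302W had log2 ratios of −1.08, −1.11 and −0.23 (mean −0.81 ± 0.50; limma, adjusted p = 0.236), likewise smallest in size in replicate 3. The leader and the coding region belong to 1 transcript, and the sequences of both probes were not used here.

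In the cytosolic part, *ARG3* (YJL088W) encodes ornithine carbamoyltransferase. Its intensity was 950, 860 and 838 in the mutant and 3916, 1421 and 1377 in the wild-type. The strains did not overlap, and the wild-type of replicate 1 was the highest. The log2 ratios were −2.04, −0.72 and −0.72, and the mean was −1.16 ± 0.76 (95% interval from limma −1.89 to −0.43; limma, Benjamini-Hochberg adjusted p = 0.234), which is 2.24-fold lower in the mutant. Without replicate 1 the mean was −0.72. *ARG1* (YOL058W) encodes argininosuccinate synthetase, and its intensity was 14293, 11030 and 8569 in the mutant and 44325, 34625 and 8770 in the wild-type. The wild-type of replicate 3 lay below the mutant of replicates 1 and 2, so the strains overlapped. In replicates 1 and 2 the log2 ratios were −1.63 and −1.65, and only 0.256% of genes in replicate 1 and 0.240% in replicate 2 were as low. In replicate 3 the log2 ratio was −0.03, with −0.01 on the first array and −0.05 on the dye swap. Its SD of 0.93 was the largest of the 9 genes (mean −1.11; limma, adjusted p = 0.295). *ARG4* (YHR018C) encodes argininosuccinate lyase, which completes arginine. Its intensity was 10652, 15184 and 15981 in the mutant and 14716, 29031 and 33137 in the wild-type, with a small overlap from the wild-type of replicate 1. *ARG4* differed from *ARG1*, *ARG8* and *CPA1* in the replicate that was weakest, since its log2 ratio was −0.47 in replicate 1, −0.94 in replicate 2 and −1.05 in replicate 3 (mean −0.82 ± 0.31; limma, adjusted p = 0.168).

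**Figure D1:**
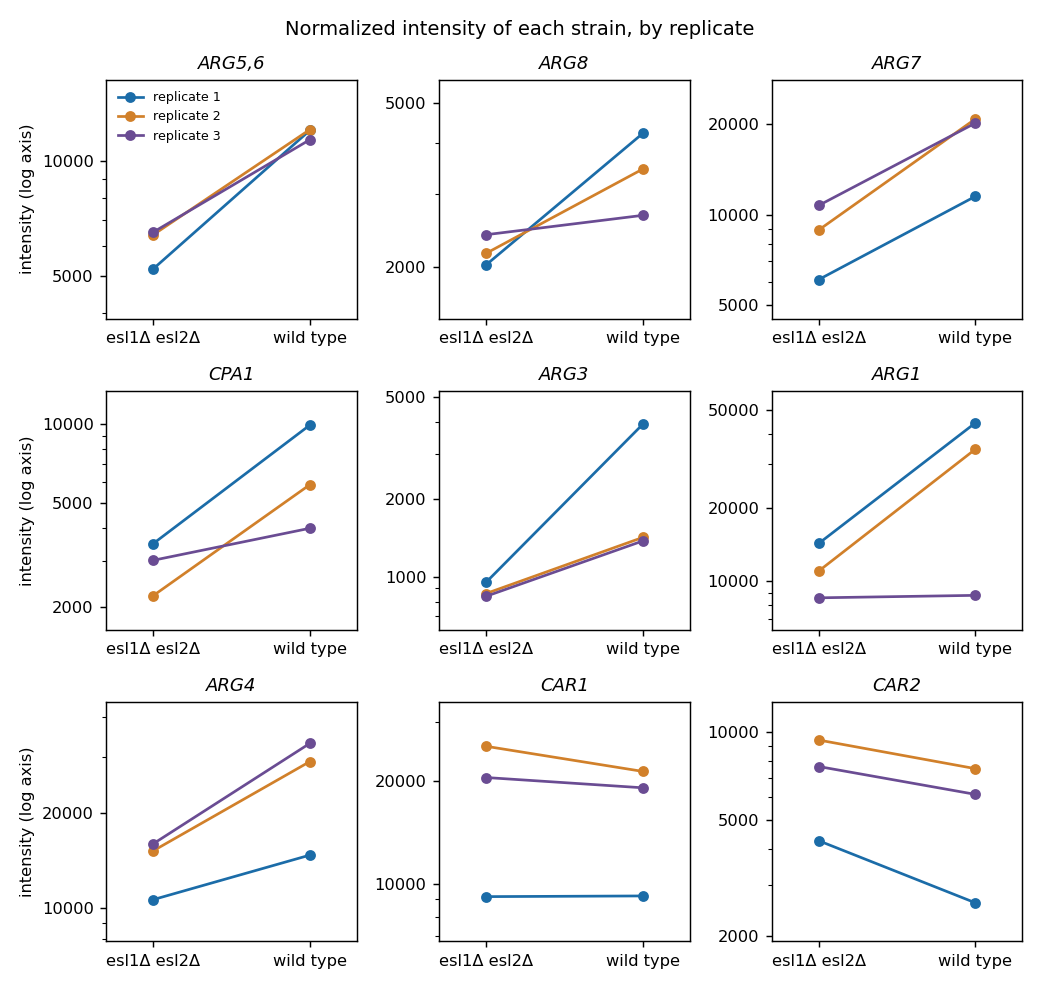
Normalized intensity (log axis, scaled between arrays) of the 9 arginine genes in *esl1Δ esl2Δ* (left) and wild-type (right) of replicates 1 to 3, with a line for each replicate and both arrays of replicate 3 averaged. The lines of all 7 synthesis genes run lower on the mutant side, except that *ARG1* is nearly level in replicate 3 (8569 and 8770), whereas those of *CAR2* run higher and those of *CAR1* are close to level.

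*CAR1* (YPL111W) encodes arginase, which splits arginine into ornithine and urea. Its intensity was 9164, 25383 and 20541 in *esl1Δ esl2Δ* cells and 9207, 21411 and 19161 in wild-type cells. The strains overlapped, and the values of both strains were lowest in replicate 1. The log2 ratios of −0.01, 0.25 and 0.10 averaged 0.11 ± 0.13 (SD, n = 3; 95% interval from limma −0.16 to 0.38; limma, Benjamini-Hochberg adjusted p = 0.693). That interval leaves room for a *CAR1* ratio on either side of 0. *CAR2* (YLR438W) encodes ornithine aminotransferase, the enzyme after arginase. Its intensity was 4251, 9405 and 7633 in the mutant and 2606, 7507 and 6129 in the wild-type, and the mutant value was the higher in each replicate although the strains overlapped across replicates. Non-overlapping intensities with the mutant higher were found for 4.11% of all genes and for neither catabolic gene. The log2 ratio was 0.71 in replicate 1, 0.33 in replicate 2 and 0.32 in replicate 3, with a mean of 0.45 ± 0.22 (95% interval from limma 0.13 to 0.77; limma, adjusted p = 0.268), which is 1.37-fold higher in the mutant. *CAR2* exceeded *CAR1* by 0.34 ± 0.33 on the log2 ratio scale, most of it in replicate 1. Among all genes, 18.7% were above 0 in all 3 replicates, as was *CAR2*, and 7.9% had an unadjusted p below 0.05 on the higher side, as did *CAR2*.

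The synthesis and catabolic genes were then set against each other within each replicate. The mean log2 ratio of the 7 synthesis genes was −1.26 in replicate 1, −1.08 in replicate 2 and −0.58 in replicate 3, and that of the catabolic genes was 0.35, 0.29 and 0.21. The difference of synthesis minus catabolism was thus −1.61, −1.36 and −0.79, a mean of −1.25 ± 0.42 (SD, n = 3), and no test is given because the genes were chosen with earlier results known. In each replicate all 7 synthesis genes lay below both *CAR1* and *CAR2*, and 28.7% of all genes did so in all 3 replicates. On the arrays of replicate 3 taken singly the difference was −0.81 with the mutant in Cy5 and −0.77 with the mutant in Cy3. The synthesis mean was −0.63 and −0.54 on these arrays, and the catabolic mean was 0.18 and 0.23. A dye shift shared by both groups cancels in the difference. Replicates 1 and 2 had no dye swap, so their larger differences have no such comparison. For single genes, the mean difference from the catabolic mean was between −1.44 (*ARG3*) and −0.91 (*ARG8*). When the 9 genes were ordered by mean log2 ratio, no neighbors among the 7 synthesis genes differed by more than the SD of their difference, whereas *ARG8*, the highest of them, and *CAR1*, the lower catabolic gene, did (0.74 ± 0.43). The catabolic genes *CAR1* and *CAR2* also did, by a small margin (0.336 ± 0.333). The order was made from the same means, which keeps neighbors close. These gaps are a description and no test of a difference between the groups.

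**Figure D2:**
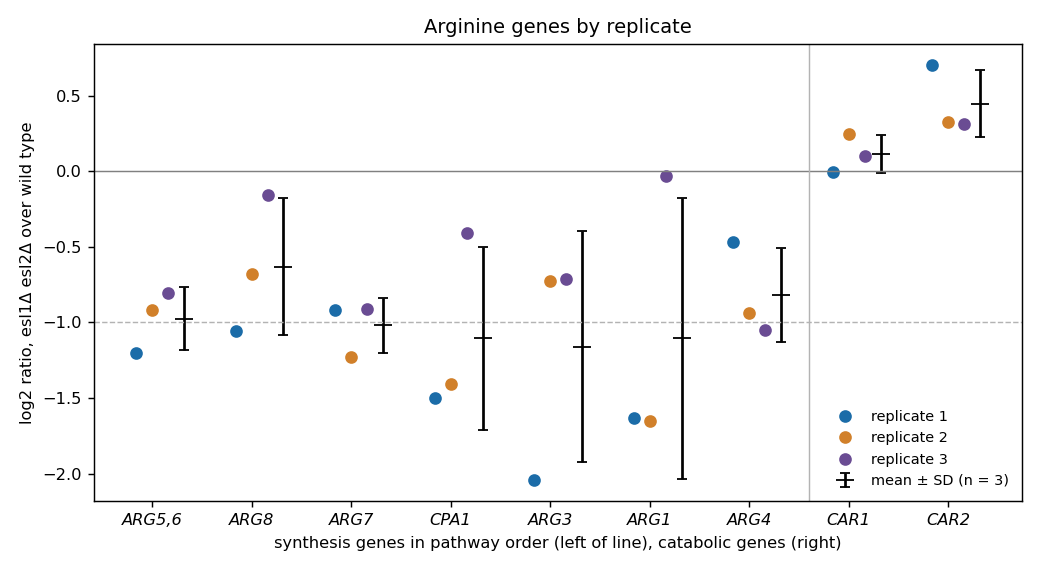
Log2 ratio of *esl1Δ esl2Δ* over wild-type for the 9 arginine genes in replicates 1 to 3 (points), with mean ± SD (n = 3). The dashed line is 2-fold lower. The 7 synthesis genes lie below 0 in every replicate, *ARG1* by 0.03 only in replicate 3, and *CAR2* lies above 0 in every replicate.

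The synthesis genes were also grouped by the compartment of their enzymes. The mean log2 ratio of *ARG5,6*, *ARG7* and *ARG8* (mitochondrial) was −0.87 ± 0.23, and that of *ARG1*, *ARG3* and *ARG4* (cytosolic) was −1.03 ± 0.40 (SD, n = 3 replicates for each). The genes known to be repressed through ArgR–Mcm1 (*ARG1*, *ARG3*, *ARG5,6* and *ARG8*) had a mean of −0.97 ± 0.53, and *ARG4*, *ARG7* and *CPA1* had one of −0.98 ± 0.20. By replicate, the ArgR–Mcm1 genes had mean log2 ratios of −1.48, −0.99 and −0.43 in replicates 1 to 3, and *ARG4*, *ARG7* and *CPA1* had −0.96, −1.19 and −0.79. The latter means average opposite orders, since *CPA1* had −1.50, −1.41 and −0.41 and *ARG4* had −0.47, −0.94 and −1.05. Among the ArgR–Mcm1 genes, *ARG5,6* varied less, with −1.20, −0.91 and −0.80. The replicate pattern therefore did not follow this grouping gene by gene. These groupings are descriptions, and their difference was not tested.

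The spread between replicates was also compared between strains. Wild-type RNA was in Cy3 on every array but the dye swap, so strain and dye cannot be told apart in these spreads. For 6 of the 7 synthesis genes the SD of the log2 intensity over replicates was larger in wild-type than in mutant cells, *ARG5,6* being the exception, and the same was found for 62.3% of all genes. The median SD of the 7 genes was 0.32 in the mutant and 0.63 in the wild-type, against 0.28 in the mutant and 0.34 in the wild-type over all genes. *ARG1* varied 1.67-fold between the highest and lowest mutant replicate and 5.05-fold between the highest and lowest wild-type replicate. For *ARG3* these ranges were 1.13-fold in the mutant and 2.84-fold in the wild-type. In replicate 3, where the *ARG1* ratio was near 0, its mutant intensity of 8569 was the lowest of the mutant values and its wild-type intensity of 8770 the lowest of the wild-type values. The catabolic genes varied in both strains, with SDs of 0.78 in the mutant and 0.66 in the wild-type for *CAR1*, and 0.59 in the mutant and 0.81 in the wild-type for *CAR2*.

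Without replicate 3, all 7 synthesis genes had an adjusted p below 0.05 by limma with Benjamini-Hochberg adjustment, between 0.00558 for *ARG1* and 0.043 for *ARG3*, and so had 4.96% of all genes on the lower side. Replicates 1 and 2 both had the mutant in Cy5, so in this fit strain and dye cannot be told apart. Their mean log2 ratios over replicates 1 and 2 were −1.64 (*ARG1*), −1.45 (*CPA1*), −1.38 (*ARG3*), −1.07 (*ARG7*), −1.06 (*ARG5,6*), −0.87 (*ARG8*) and −0.70 (*ARG4*). *CAR2* had 0.52 with an adjusted p of 0.0611, and *CAR1* had 0.12 with 0.512, so that neither was called, against 4.67% of all genes on the higher side. Without replicate 1 or without replicate 2, 0 of the 7 synthesis genes were called, but these fits called only 2 and 3 of 6255 genes in all, so that the count says little of the members. The 7 synthesis genes and *CAR2* each had the same sign in every replicate, so leaving one out could not reverse them. *CAR1* was below 0 only in replicate 1, by 0.01, which is smaller in size than its ratios in replicates 2 and 3. Leaving a replicate out could therefore not reverse *CAR1* either.

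**Figure D3:**
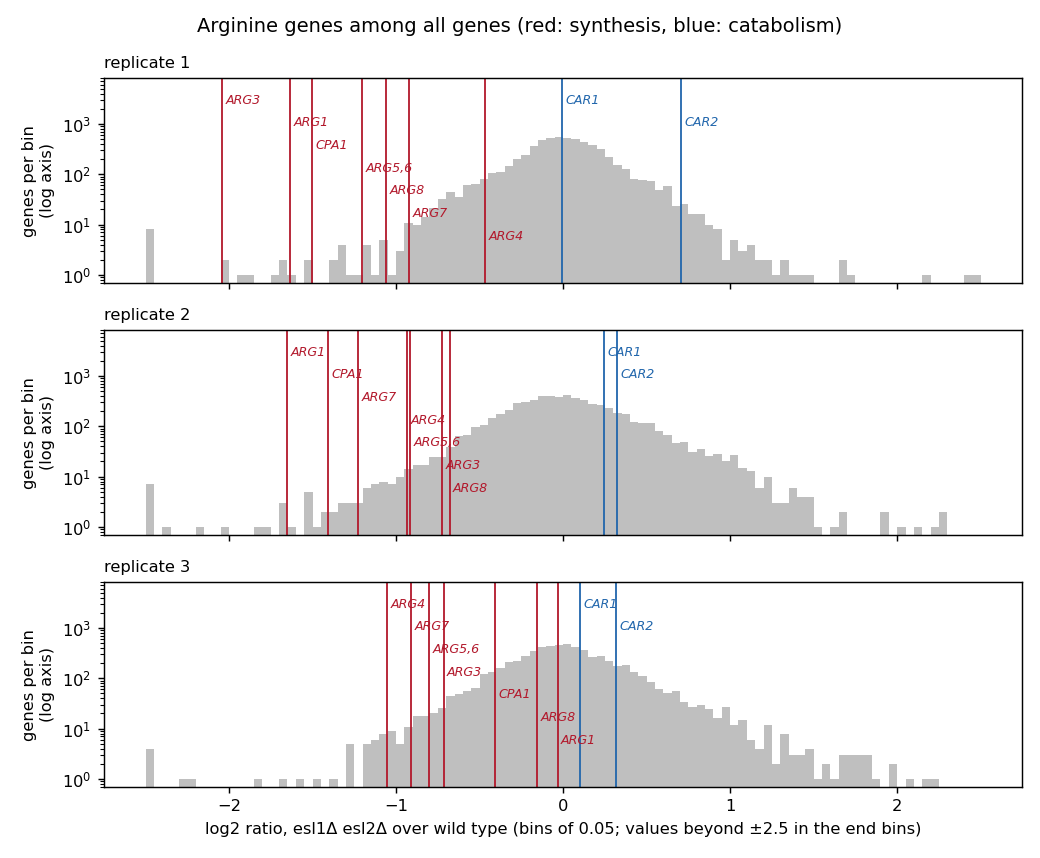
Distribution of the log2 ratio of *esl1Δ esl2Δ* over wild-type over 6254 genes in each replicate (gray, gene count on a log axis), with the synthesis genes marked in red and the catabolic genes in blue. In replicates 1 and 2 the synthesis genes lie in the lower tail. In replicate 3 *ARG1* (−0.03) and *ARG8* (−0.16) lie in the bulk of the genes.

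The rest of the pathway was read from a list of 29 genes in 7 groups. By limma 0 of the 29 passed after adjustment, and before it 3 had a p below 0.05 on the lower side (*ARG80*, *PUT3* and *SPE1*) and 1 on the higher side (*PUT4*), against 5.39% of all genes on the lower and 7.9% on the higher side. Of the 29 genes 8 were below 0 and 2 above 0 in all 3 replicates, against 18.5% of all genes below and 18.7% above, and their median log2 ratio was −0.12. Among the other synthesis genes, *ARG2* (YJL071W), whose product makes the acetylglutamate that starts the pathway, had a log2 ratio of −0.16 ± 0.20, and *ORT1* (YOR130C), the mitochondrial ornithine exporter, one of −0.22 ± 0.09. Neither was within the range of the 7 synthesis genes. Without replicate 3, 2 of the 29 genes were called by limma, *ARG80* and *PUT1*, each with a mean of −0.50 over replicates 1 and 2, against 4.96% of all genes on the lower side.

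Of the 5 regulator genes, *ARG80* (YMR042W), a DNA-binding component of ArgR, was lower in all replicates, with −0.55, −0.44 and −0.18 (mean −0.39 ± 0.19; limma, Benjamini-Hochberg adjusted p = 0.288). *ARG81*, the arginine sensor of the complex, had a mean of −0.25 ± 0.28 and *GCN4* one of −0.24 ± 0.34, both with a ratio above 0 in replicate 3 (0.06 and 0.14). Gcn4 is controlled mostly at translation, which these arrays do not read. *MCM1* and *ARG82* had means of 0.11 and −0.12. The repressor genes of *CAR1* and *CAR2*, *UME6*, *SIN3* and *RPD3*, had means between −0.18 and 0.09. The 4 permease genes *CAN1*, *ALP1*, *LYP1* and *GAP1* had means between −0.15 and 0.09, and *CAN1* had −0.15, −0.42 and 0.58 in replicates 1 to 3.

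Downstream of arginase, urea is used by the product of *DUR1,2* (urea amidolyase), which had a log2 ratio of 0.27 ± 0.25, while *DUR3*, the urea transporter gene, had −0.41 ± 0.42 (SD, n = 3). Their activator genes *DAL81* and *DAL82* had −0.08 and 0.06. In the proline branch, to which *CAR2* leads, the 7 genes had a median of −0.16. *PUT4*, the proline permease gene, was above 0 in all replicates, with 0.36 ± 0.16, and *PUT3*, the activator of proline use, was below 0 in all replicates, with −0.30 ± 0.02. Within replicate 3 *PUT3* had −0.41 on the first array and −0.14 on the dye swap. *PUT1*, proline oxidase, had −0.57, −0.42 and 0.75 and so had the opposite sign in replicate 3. *PRO1*, *PRO2* and *PRO3*, the genes of proline synthesis, had means of −0.16, −0.20 and −0.16, and *PUT2*, which acts after *PUT1*, had 0.02. The polyamine branch begins with ornithine decarboxylase, *SPE1*, at −0.27 ± 0.08, and its 4 genes had a median of −0.04. In replicate 3 *SPE1* had −0.45 on the first array and 0.09 on the dye swap, a spread that this SD does not include. The genes of the later polyamine steps, *SPE2*, *SPE3* and *SPE4*, had means of 0.08, −0.16 and 0.10.

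**Figure D4:**
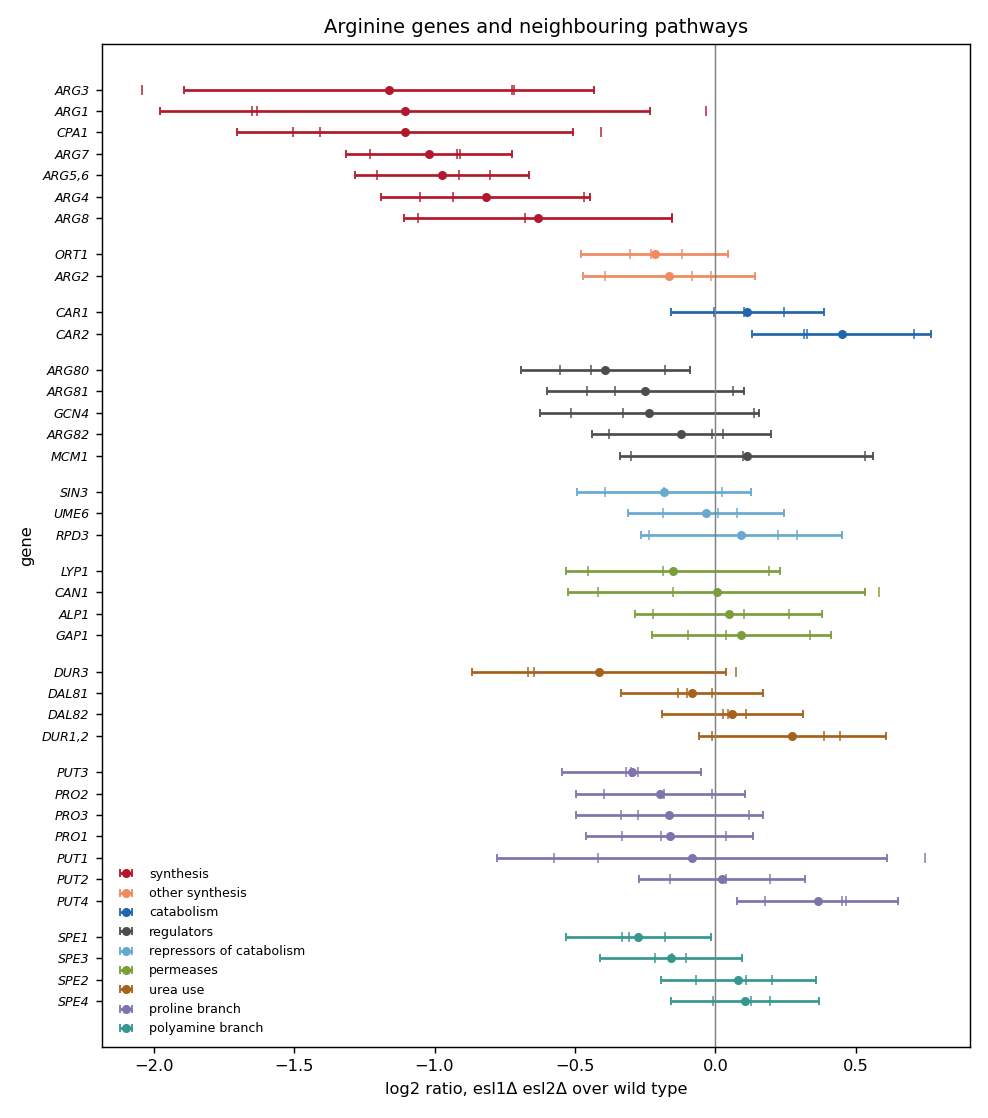
Mean log2 ratio of *esl1Δ esl2Δ* over wild-type (points) with the 95% interval from limma (bars) and the values of the 3 replicates (ticks) for the 9 arginine genes and the 29 genes of neighboring steps. None of the 29 has a mean beyond 2-fold, and their means lie between −0.41 (*DUR3*) and 0.36 (*PUT4*).

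Genes with a similar profile were looked for among 5727 other genes that were well above background on all arrays, by the Euclidean distance over the 3 replicate log2 ratios. Only 5 lay within 0.5 of the mean profile of the 7 synthesis genes. Among them were *MIG2*, a glucose-responsive repressor gene (distance 0.118), YJL107C (0.257), the *CPA1* leader frame YOR302W (0.400), and *ADE1*, a purine synthesis gene (0.482). The mean of *MIG2* was −1.03. The mean profile of *CAR1* and *CAR2* was close to that of many genes, with 1530 within the same distance, and the nearest were YOR277C, *MRP51*, *AIM24*, *ERD1* and YPR099C (0.0230 to 0.0821).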

How the data were processed

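From 500 ng of RNA for each sample, the authors deposited, per the file headers, spot intensities from Agilent Feature Extraction 10.1.1.1 (unnormalized medians of the spot and of its local background) and the log10 ratio of Cy5 to Cy3 that this software gives after subtracting background and normalizing dyes. The deposited series table held the same log10 ratios at all 15744 spots, not turned for the dye swap. The paper names GeneSpring and gives no normalization or test.

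Here, intensities were corrected by normexp (offset 50) and normalized by loess within each array with limma 3.58.1 (R 4.3.3; files read by data.table, version 1.17.8). Of 15208 gene spots per array, 291 to 486 marked as outliers were left out, as were 536 control spots, and repeated spots gave 1 mean per probe. The sign of the dye-swap array was turned so that every ratio is mutant over wild-type, and replicate 3 is the mean of its 2 arrays. For 6254 genes the 3 log2 ratios were set against 0 in limma (lmFit, eBayes; p two-sided and adjusted by Benjamini-Hochberg across all genes, threshold 0.05). Intensities printed are those after loess and Aquantile scaling between arrays, which leaves ratios as they are. Current symbols came from the R64 RefSeq table, which matched 5755 genes by locus tag, and the array design is older, so no coordinates are given. The files hold systematic names and no gene names. All arrays were on 1 slide, so slide could not be a block. No exact test is given, and 3 replicates limit the precision of every mean. The fit was also run on simulated data with independent errors in 3 like replicates. Replicate 3 stood apart in the real data, so that run does not show how the fit performs on them.

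The genes named are the 9 members, the deleted genes, a list of 29 pathway genes and genes among the 5 nearest to each profile, of which YOR302W is one; 1 further pathway gene, outside these 29, and 1 of the nearest genes are not reported here. The grouping of synthesis genes by compartment and by ArgR–Mcm1 and the comparison of spread between strains were made after the values were seen. The members and lists were chosen with earlier results of these data known. Alternatives covered the source of the ratio, background correction, normalization, spot and probe filters, the dye swap, separate channels and each replicate left out.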

Additional observations from a re-analysis of the deposited data

How the results depend on the processing

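The difference of synthesis minus catabolism was −1.25 and lay between −1.49 and −1.02 under 15 alternatives, and the 9 genes kept their direction under each of them. Some alternatives could not alter these results. The filter on probes well above background and the separate channels left the difference the same by construction, and the series table repeated the Feature Extraction log ratio. Leaving a replicate out could not change the sign of any of the 9 genes. Of the 7 synthesis genes 0 were called, and leaving out a replicate gave 0 to 7, with 7 only without replicate 3. Both catabolic genes stayed uncalled. The number of genes called by limma over all genes was 7. It was 1 with the Feature Extraction log ratio or the series table, 4 with the dye-swap array alone for replicate 3, 11 with median centring, 50 by a mean past 2-fold in place of the adjusted p, and 2 to 602 with a replicate left out. Without a replicate block (separate channels, mutant and wild-type as 2 groups of 3) it was 5, and the members' log2 ratios were the same by construction. A dye term with both arrays of replicate 3 as a random block could not be fitted, because no consensus correlation was obtained. The 4 arrays were also fitted as separate samples with a dye term, an alternative chosen after seeing the data. It gave *ARG1* −0.58 in place of −1.11, *ARG8* −0.32 in place of −0.63 and *CPA1* −0.70 in place of −1.10. *ARG4* moved the other way, to −0.94 in place of −0.82. This fit weighs the dye-swap array as much as the other 3 arrays together, so replicate 3 counts for more in it than in the main fit. The 9 genes were all well above background, but whether background limited the size of their ratios was not tested. *ARG3*, whose mutant intensities were the lowest, had −1.16 in the main fit. It had −1.21 with a normexp offset of 0 and −1.24 with the Feature Extraction log ratio.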
